A study of Mus musculus with 8 samples.

Results

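Ndrg1, Bnip3, Slc2a1 and Ero1l are 4 of the 2000 genes in a pooled single-cell RNA table from mouse hepatoma tumours. They were taken by name as genes of the hypoxia response, and each has a row in the table. Hepa1-6, an established hepatoma line of the mouse, gave rise to the tumours, so the hepatoma cells share 1 line, while the immune and stromal cells come from the host animals. The labels give 4 groups. Tumours of unedited cells (genotype WT) came from animals injected intraperitoneally with PBS or with an antibody against PD-1, and tumours of Soat1-edited cells came from animals given the same 2 injections. The edited cells are called KO in the titles and knockdown in the genotype field, and Soat1 itself is not a gene of the table used here. The 53528 cells fall into 6 sets by the last number of their names. Nothing maps a set to a group, so all cells count as 1 sample, and genotypes and treatments were not compared.

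Cells sense low oxygen through prolyl hydroxylases, which mark the alpha subunits of the hypoxia-inducible factors for degradation while oxygen is present. When oxygen falls, the factors accumulate and bind hypoxia response elements in target genes, raising glucose uptake, glycolysis, angiogenic signals and mitochondrial turnover. In solid tumours, cells far from vessels are known for this response. Of the 4 genes, Slc2a1 encodes the glucose transporter GLUT1 and Bnip3 a protein of the outer mitochondrial membrane that promotes mitophagy. Ero1l, now named Ero1a, encodes an oxidase of the endoplasmic reticulum that keeps disulfide bonds forming in secreted proteins. Ndrg1 encodes a cytoplasmic protein induced by hypoxia and other stresses.

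The bases before the start sites are shown for the members with a RefSeq promoter entry, because the 4 genes varied together over hepatoma cells and the core of a hypoxia response element can be read in them. Of the 4 members, 3 had an entry (GRCm38.p6), and Ndrg1 did not. Each line gives the 250 bases before the start on the gene's own strand, with ACGTG and GCGTG, searched on both strands, in capitals. The windows are chr7:138909507-138909756 on the minus strand for Bnip3, chr4:119108495-119108744 on the plus strand for Slc2a1 and chr14:45318573-45318822 on the minus strand for Ero1l.
Bnip3: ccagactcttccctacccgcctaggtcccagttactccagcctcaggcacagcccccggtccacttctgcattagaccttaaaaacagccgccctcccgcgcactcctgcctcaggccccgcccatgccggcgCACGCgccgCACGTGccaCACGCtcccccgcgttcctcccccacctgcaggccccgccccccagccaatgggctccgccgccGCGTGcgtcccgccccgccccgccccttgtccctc
Slc2a1: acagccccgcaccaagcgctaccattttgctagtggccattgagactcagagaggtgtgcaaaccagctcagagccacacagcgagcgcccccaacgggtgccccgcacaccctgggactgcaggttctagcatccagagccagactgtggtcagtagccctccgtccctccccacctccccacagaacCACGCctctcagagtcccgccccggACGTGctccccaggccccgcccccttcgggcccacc
Ero1l: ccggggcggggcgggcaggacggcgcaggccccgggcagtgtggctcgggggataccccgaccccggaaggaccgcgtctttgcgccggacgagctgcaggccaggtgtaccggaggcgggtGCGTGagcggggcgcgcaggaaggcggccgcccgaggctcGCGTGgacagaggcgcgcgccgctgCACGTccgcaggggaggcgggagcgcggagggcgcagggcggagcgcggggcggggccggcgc
The Bnip3 window held 5 matches, of which 2 are ACGTG read on the opposite strands of a single CACGTG that lies 108 to 103 bases before the start, so they overlap. The Ero1l window held 3 matches and the Slc2a1 window 2. ACGTG was in each of the 3 windows and so was GCGTG, while the Slc2a1 window did not reach 3 matches. Of all 32851 promoter windows of this length, 16.6% held ACGTG, 28.2% held GCGTG, 38.6% held either and 6.58% held 3 or more matches. Those windows were not matched to the 3 for base composition, so the shares do not measure enrichment. A match is a description of the letters, and binding was not measured.

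Cells were placed in classes by marker genes. In set 1 the UMI counts could be recovered, and after 87 called doublets were left out it gave 6223 hepatoma cells, 577 macrophages, 70 monocytes, 104 neutrophils, 1307 T cells and 74 fibroblasts. Over the 6 sets the hepatoma class held 2591 to 7069 cells, and the classes of monocytes, neutrophils and fibroblasts held as few as 70, 44 and 53. Set 1 cells had 1001 to 261833 UMIs. The median was 18220 in hepatoma cells against 2869 in macrophages, 2998 in monocytes, 1303.5 in neutrophils, 4742 in T cells and 6771.5 in fibroblasts. Leaving hepatoma markers aside, each class had its own marker list above every other list. The hepatoma list summed to 22167 UMIs per 1000000 (CPM) in hepatoma cells and 2568 to 5733 CPM in the other classes, with none of its 13 markers at 0 in any class. In monocytes that sum, 3358 CPM, was above their own markers at 2995 CPM. All levels below in CPM are summed UMIs over summed UMI totals in set 1, with 95% Poisson intervals that cover counting error only.

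Hepatoma RNA in the other classes was followed with 5 secreted liver genes, Afp, Alb, Fgb, Trf and Rbp4. All 5 are among the 13 hepatoma markers of the gates, which capped the marker mean in the other classes and set a minimum in hepatoma cells. Selection can thus lower the shares of these 5 genes, to an extent that was not tested. Their levels, as a share of the hepatoma level, were 0.147 to 0.297 in macrophages, 0.124 to 0.201 in monocytes, 0.209 to 0.332 in neutrophils, 0.0937 to 0.141 in T cells and 0.102 to 0.180 in fibroblasts. The same share for each of the 4 hypoxia genes was higher than the highest of the 5 in all 5 classes, but its counting interval reached below that value for Ndrg1 in monocytes and fibroblasts and for Bnip3 in monocytes. The margin was narrow for Ndrg1, at 1.23 to 1.63 times that highest share, and for Bnip3 in monocytes and T cells, at 1.25 and 1.42 times. It was wide for Slc2a1, at 2.56 to 4.38 times, and for Ero1l, at 3.80 to 14.3 times. The part of hepatoma RNA in the members' levels was not tested beyond these values.

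Ndrg1 stood highest in hepatoma cells, at 561.7 CPM (557.9 to 565.5). It was 304 CPM (240 to 380) in neutrophils, 212 (194 to 232) in macrophages, 143 (99.5 to 199) in monocytes, 124 (97.9 to 155) in fibroblasts and 103 (96.3 to 110) in T cells. Monocytes and fibroblasts, and fibroblasts and T cells, did not differ beyond counting error, while each earlier step in the order did. The hepatoma level was 2.65 times the macrophage level (interval 2.42 to 2.90) and 5.45 times the T cell level (5.10 to 5.83).

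In summed UMIs Bnip3 was as high in neutrophils as in hepatoma cells, at 495 CPM (413 to 589) and 487 CPM (483 to 490), a ratio of 1.02 (0.848 to 1.21). Macrophages followed at 261 CPM (241 to 284), then fibroblasts at 132, monocytes at 122 and T cells at 97.9, which could not be put in order beyond counting error from one to the next. Hepatoma cells had 1.86 times the macrophage level (1.72 to 2.02) and 4.97 times the T cell level (4.64 to 5.33).

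Slc2a1 varied less between classes. Its level was 183 CPM (135 to 244) in neutrophils, 126 (124 to 128) in hepatoma cells, 123 (108 to 138) in macrophages, 93.8 (59.5 to 141) in monocytes, 58.0 (40.6 to 80.3) in fibroblasts and 52.5 (47.7 to 57.6) in T cells. Of the 5 neighbouring steps, only that from neutrophils to hepatoma cells exceeded counting error, at 1.46 times (1.07 to 1.94). Hepatoma cells and macrophages had a ratio of 1.03 (0.911 to 1.16). Against T cells the hepatoma level was 2.40 times higher (2.18 to 2.64).

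Ero1l was the gene of the 4 with the highest level outside the hepatoma cells relative to them. Neutrophils had 643 CPM (549 to 749), 4.74 times the hepatoma level of 136 CPM (interval of the ratio 4.04 to 5.53) and 3.50 times the monocyte level of 184 CPM (134 to 246). Macrophages had 153 CPM (137 to 170), fibroblasts 96.7 (73.8 to 124) and T cells 88.8 (82.5 to 95.4). Monocytes and macrophages, and fibroblasts and T cells, did not differ beyond counting error. The neutrophil sum of 165 UMIs came from 104 cells, and 51.9% of them had at least 1 UMI (exact binomial interval 41.9 to 61.8), at the lowest median depth of the 6 classes. Their own markers summed to 35387 CPM, against 823 CPM for the monocyte list and 93.6 CPM for the macrophage list.

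**Figure D1:**
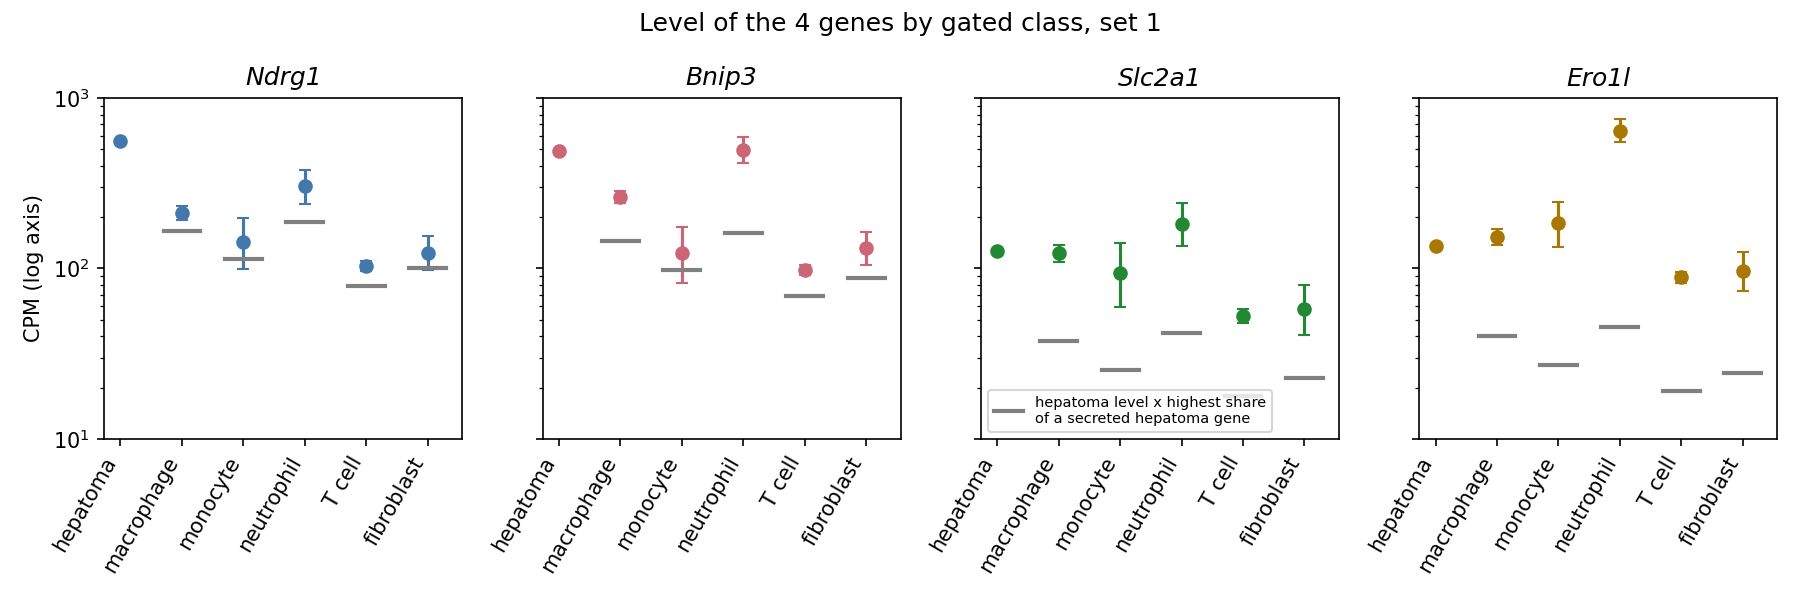
CPM of each gene in the 6 gated classes of set 1 on a log axis, with 95% Poisson intervals as bars. Grey lines give the hepatoma level multiplied by the highest share among the 5 secreted hepatoma genes in that class. These 5 genes are also gate markers. Ero1l in neutrophils lies far above its grey line, and Ndrg1 in T cells, fibroblasts and monocytes lies close to it.

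Counted over the members, hepatoma cells were more than 2-fold higher for 1 gene against macrophages, 2 against monocytes, 0 against neutrophils, 3 against T cells and 3 against fibroblasts. Of all genes tested, with at least 10 UMIs in the pair, 30.5%, 41.4%, 26.1%, 34% and 30.9% passed the same ratio in the same order of classes. The median log2 ratio of the 4 was 0.47, 1.19, −0.28, 1.77 and 1.49, beside 0.22, 0.64, 0.32, 0.19 and 0.29 over all genes tested. With a stricter gate, which left 153 macrophages, the Ero1l log2 ratio of hepatoma cells to macrophages went from −0.17 to 0.38, and that of Bnip3 from 0.89 to 0.50.

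The share of cells with a UMI followed depth as well as level. Unthinned, Ndrg1 had a UMI in 88.6% of hepatoma cells and 37.6% of T cells. With each cell thinned to 1000 UMIs the shares were 33.4% (32.3 to 34.6) and 9.26% (7.74 to 11.0). Bnip3 thinned to 35.2% of hepatoma cells (34.0 to 36.4), 26.9% of neutrophils (18.7 to 36.5), 23.7% of macrophages and 7.27% of T cells. Slc2a1 thinned to 12.8% of hepatoma cells, 12.1% of macrophages, 17.3% of neutrophils and 4.67% of T cells. Ero1l thinned to 13.1% of hepatoma cells and 13.2% of macrophages, and to 39.4% of neutrophils (30.0 to 49.5), whose interval lies above those of hepatoma cells, macrophages and T cells. No class here is known to lack these genes. The lowest thinned shares were 9.26%, 7.27% and 7.80% in T cells for Ndrg1, Bnip3 and Ero1l and 4.05% in fibroblasts for Slc2a1. They set no limit for the other classes, since the secreted liver genes were lowest in T cells and higher in neutrophils and macrophages, and the part of such RNA in each share was not tested.

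The deposited natural log values allowed the classes to be set side by side in all 6 sets, as differences of means. Unlike set 1, every cell of sets 2 to 6 had values below 0, and the steps that made them are not given. Here and below, the part of those steps in any likeness between sets was not tested. Ndrg1 was higher in hepatoma cells than in each other class in 6 of 6 sets. The difference ran from 0.76 to 0.94 (median 0.83) for macrophages and from 0.96 to 1.24 (median 1.01) for T cells. Bnip3 exceeded macrophages by 0.56 to 0.72, neutrophils by 0.30 to 0.58 and T cells by 0.99 to 1.19. Slc2a1 differences were smaller, 0.19 to 0.29 for macrophages, 0.07 to 0.47 for neutrophils, 0.04 to 0.39 for monocytes and 0.39 to 0.52 for T cells.

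Ero1l in neutrophils was the only one of the 20 pairs of gene and class in which the hepatoma mean was the lower one. The hepatoma mean minus the neutrophil mean was −0.81 at the lowest, −0.62 at the median and −0.34 at the highest of the 6 sets. The neutrophil mean of Ero1l itself ran from 1.06 to 1.63 over the sets, against 0.67 to 0.83 in hepatoma cells, so the 2 ranges did not overlap. Against macrophages the Ero1l difference was 0.19 to 0.27 in favour of hepatoma cells. On this scale Ero1l in macrophages and monocytes and Bnip3 and Slc2a1 in neutrophils lay on the other side of the hepatoma level than in summed UMIs. A mean of log values counts each cell once and gives a cell without a UMI a value of 0 in set 1, while summed UMIs weight deep cells. With each cell counted once but without the log, the Ero1l log2 ratio of hepatoma cells to macrophages was −0.04, from −0.17, so its sign stayed. Depth in set 1 is lower in those classes than in hepatoma cells. The part of unequal depth in the differences of means was not tested.

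**Figure D2:**
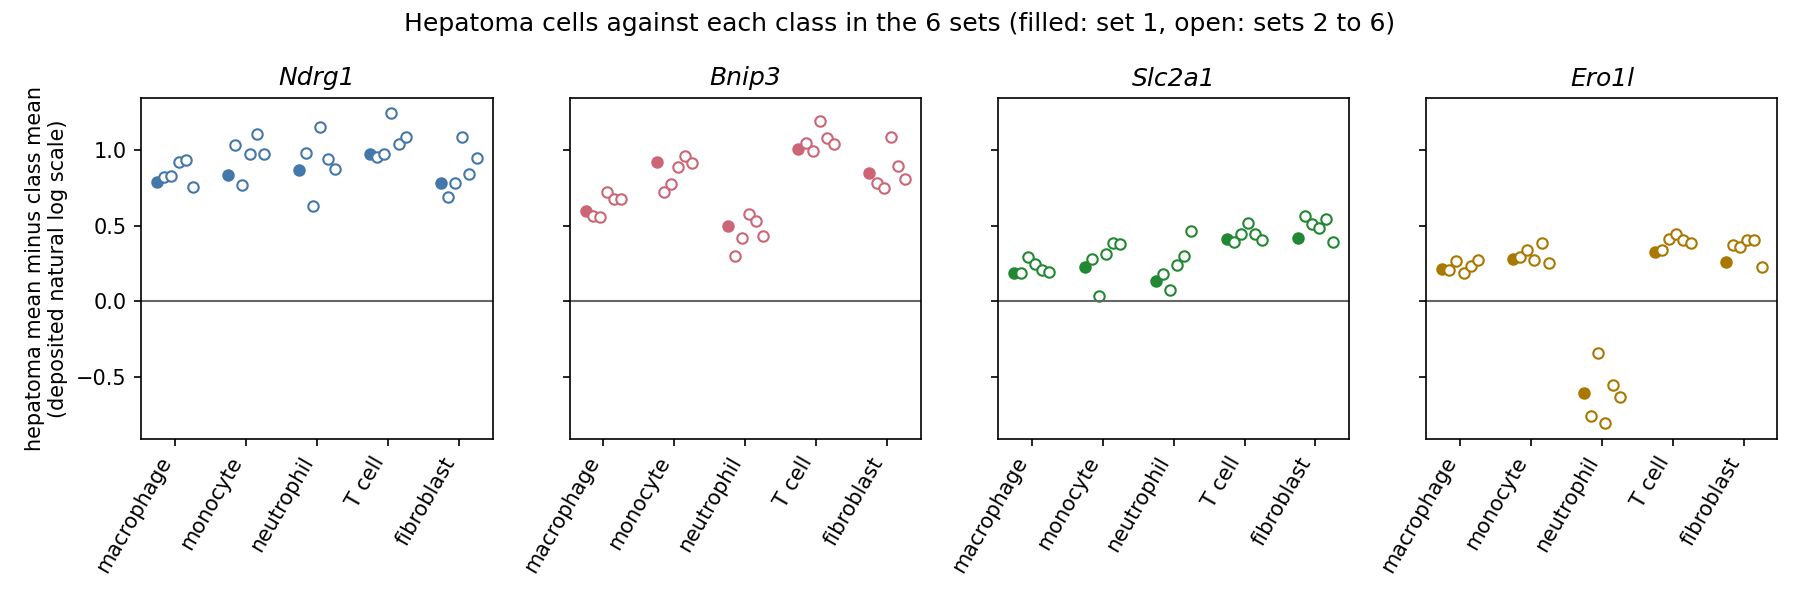
Hepatoma mean minus class mean of the deposited natural log values, with 1 point for each of the 6 sets, filled for set 1 and open for sets 2 to 6. All points lie above 0 except those of Ero1l in neutrophils, which lie between −0.81 and −0.34.

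Within hepatoma cells, all 4 genes were lowest in cells with G2/M genes. Cells were split by the summed UMIs of fixed cell-cycle lists. A cell with at least 20 UMIs of the 44 listed G2/M genes per 10000 was placed in G2/M (2215 cells), one below that with at least 8 of the 21 S-phase genes in S (356 cells), and the remaining 3652 cells in neither. Ndrg1 was 896 CPM (889 to 903) in cells with neither, 311 (298 to 324) in S and 162 (159 to 165) in G2/M. Bnip3 was 745 CPM (739 to 751), 309 (296 to 322) and 177 (173 to 180). Slc2a1 was 180 CPM (177 to 183), 81.5 (75.1 to 88.4) and 61.6 (59.6 to 63.6). Ero1l was 194 CPM (191 to 197), 97.7 (90.7 to 105) and 65.0 (63.0 to 67.1). No interval of a gene overlapped another of that gene.

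Cells in G2/M against cells with neither had log2 ratios of −2.46 for Ndrg1, −2.07 for Bnip3, −1.53 for Slc2a1 and −1.56 for Ero1l. All 4 were past a 2-fold lower level, as were 6.61% of all genes tested, and the median was −1.82 against 0.01 over all genes tested. In UMIs per cell, where a larger RNA total cannot lower the value, Ndrg1 had 4.50 in G2/M and 19.4 in neither, Bnip3 4.91 and 16.1, Slc2a1 1.71 and 3.90, and Ero1l 1.81 and 4.21. The median UMI total was 21358 in G2/M, 13420 in S and 17171 in neither. The summed level of the 5 secreted liver genes was also lower in G2/M, at 13837 CPM against 20455 CPM in neither, and its part in the result was not tested.

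Cells in S against cells with neither had log2 ratios of −1.52, −1.27, −1.13 and −0.98 in the same order of genes. Of the 4, 3 passed the 2-fold lower level, beside 3.02% of all genes tested. Between 15 and 25 G2/M UMIs per 10000 lay 754 cells, and between 6 and 10 S UMIs 996 cells, so the classes are ranges of a continuous score. When cells were first thinned to 1000 UMIs, the G2/M ratios became −1.15, −1.08, −0.76 and −0.70, leaving 2 of the 4 past 2-fold. The S ratios became −0.14, −0.23, −0.35 and 0.05, nearly lost and turned in direction for Ero1l. The groups were redrawn at the same cuts, and at that depth any UMI of a listed S gene passes the S cut. The part of this in the loss was not tested. Unthinned, with an S cut of 12 against the same cells with neither, the ratios were −2.52, −2.19, −1.89 and −1.36.

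The other sets gave the relation as a correlation on the deposited scale, computed over 2591 to 7069 hepatoma cells in each set. The mean value of the G2/M list had a Pearson r of −0.44 to −0.35 with Ndrg1, −0.44 to −0.34 with Bnip3, −0.31 to −0.24 with Slc2a1 and −0.31 to −0.23 with Ero1l over the 6 sets. For the S list the ranges were −0.45 to −0.36, −0.44 to −0.36, −0.31 to −0.24 and −0.30 to −0.25. All 48 values were negative.

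The low level in cells above the G2/M cut was not seen at that size in T cells. The same cuts placed 875 T cells of set 1 in G2/M and 324 in neither, and the ratio of the first to the second was 1.06 (0.879 to 1.28) for Ndrg1, 0.816 (0.683 to 0.979) for Bnip3, 0.925 (0.722 to 1.2) for Slc2a1 and 0.817 (0.677 to 0.991) for Ero1l. None of the 4 passed 2-fold in either direction, beside 14.7% of all genes tested that were higher and 6.93% that were lower. The intervals of these ratios lie wholly above the ratios over all hepatoma cells, whose intervals reached at most 0.354 but which come from deeper cells. In the 1555 hepatoma cells with the lowest UMI totals (1007 to 9519), the log2 ratios were −1.59, −1.22, −1.05 and −1.08. Those of T cells were 0.08, −0.29, −0.11 and −0.29 in the same order of genes. Median depth was 5807 UMIs in the first group of T cells and 3449 in the second. The cut placed 66.9% of T cells in G2/M against 35.6% of hepatoma cells, so it need not mark the same state in both. In T cells Ndrg1 and Bnip3 were only 1.30 and 1.42 times the highest share of a secreted liver gene. The part of hepatoma RNA in the T cell ratios was not tested.

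Hepatoma cells were also divided into 4 equal groups by UMI total. The shallowest group (1007 to 9519 UMIs) had the highest level of each gene and the deepest (31254 to 261833 UMIs) the lowest. Ndrg1 went from 833 CPM over 708 and 667 to 442 CPM. Bnip3 went from 693 to 398 CPM, Slc2a1 from 172 to 105 CPM and Ero1l from 196 to 112 CPM. The share of cells in G2/M was 33.6%, 28.7%, 32.1% and 48.1% from the shallowest group to the deepest. Among the cells with neither G2/M nor S genes, the shallowest group was 1.29 times the deepest for Ndrg1 (1.25 to 1.32), 1.21 for Bnip3, 1.24 for Slc2a1 and 1.31 for Ero1l, against 1.89, 1.74, 1.64 and 1.75 over all hepatoma cells. Within each of the 4 depth groups, cells in G2/M remained lower than cells with neither for all 4 genes, with the smallest log2 ratio at −1.05 and the largest at −2.60.

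**Figure D3:**
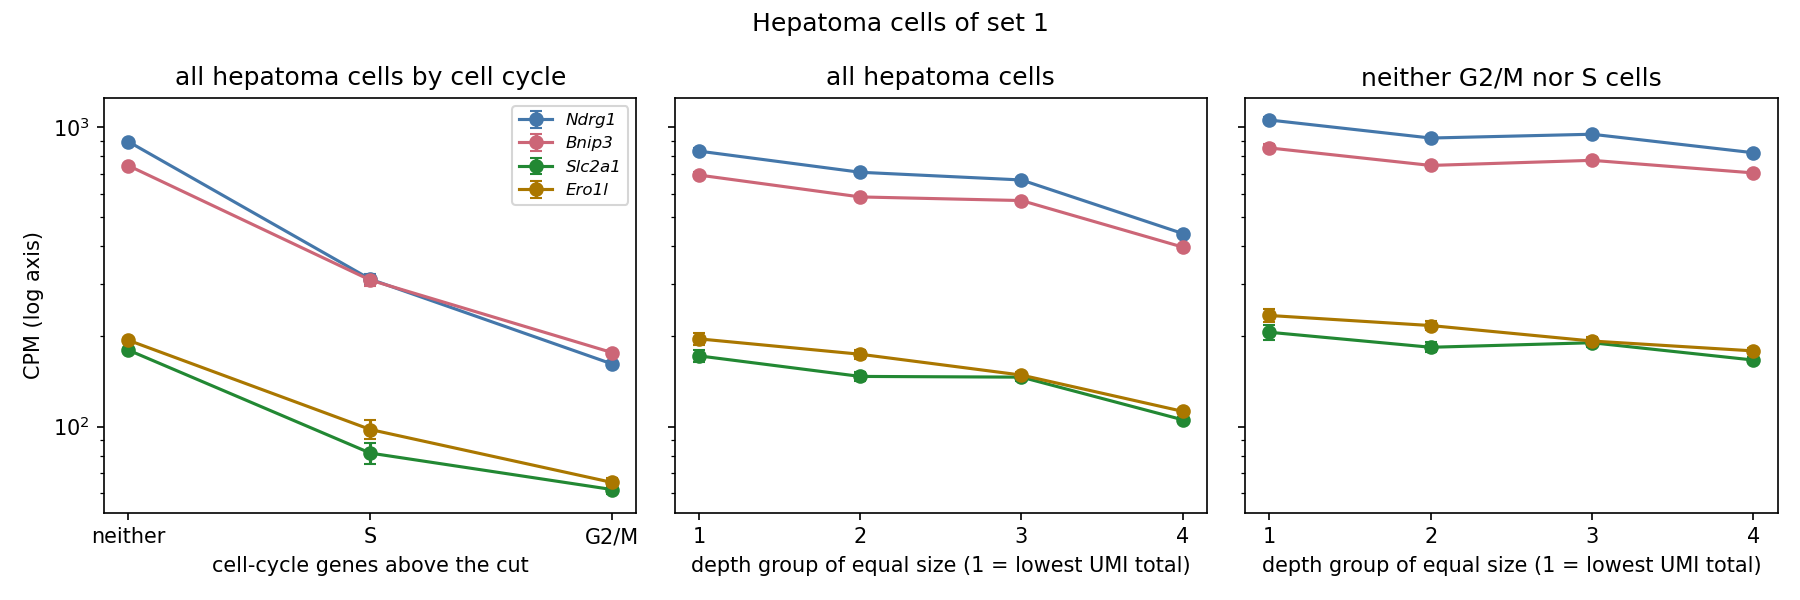
CPM on a log axis in hepatoma cells of set 1 by cell-cycle genes (left), by 4 equal groups of UMI total over all hepatoma cells (middle) and over those with neither G2/M nor S genes (right), with 95% Poisson intervals. The levels fall steeply from neither to G2/M, and the slope over the depth groups is shallower in the right panel.

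The hepatoma levels were spread unevenly over the cells. The 10% of hepatoma cells with the highest values held 48.2% of the summed UMIs per 10000 for Ndrg1, 38.8% for Bnip3, 45.0% for Slc2a1 and 46.3% for Ero1l. This was not particular to hepatoma cells. At shallower depth, the same share ran from 45.2% (Bnip3) to 68.0% (Ero1l) in macrophages and from 55.1% (Ndrg1) to 69.3% (Slc2a1) in T cells. The median hepatoma cell had 2.29 Ndrg1 UMIs per 10000, the 90th percentile was 18.3 and the highest cell 163. For Bnip3 the same values were 2.62, 15.3 and 93.4. Slc2a1 reached 35.8 and Ero1l 29.3 in their highest cells, from medians of 0.730 and 0.771.

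Each of the 4 genes was higher in hepatoma cells with more UMIs of the other 3. To hold depth fixed, 5756 hepatoma cells with at least 5000 UMIs were thinned to 5000, and 467 shallower cells were left out. Ndrg1 was 145 CPM (134 to 155) in cells with no UMI of the other 3 genes, 217 (209 to 225) in those with 1 to 3 UMIs, 933 (910 to 955) with 4 to 9 and 2219 (2173 to 2265) with 10 or more. Bnip3 was 141, 250, 806 and 1545 CPM over the same steps. Slc2a1 was 53.9, 57.6, 135 and 345 CPM, and Ero1l 46.4, 67.4, 147 and 363 CPM. The first step of Slc2a1 was within counting error (46.9 to 61.7 against 53.3 to 62.2), and every other step of the 4 genes exceeded it. At this depth 1022 cells (17.8%) had a UMI of all 4 genes and 591 (10.3%) of none.

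Pearson correlations over hepatoma cells were alike from set to set. The steps that made the values of sets 2 to 6 are not given, and their part in this likeness was not tested. Ndrg1 and Bnip3 were the closest pair, at 0.73 to 0.77 over the 6 sets. Slc2a1 had 0.58 to 0.63 with each of them. Ero1l had 0.50 to 0.58 with Ndrg1, 0.50 to 0.60 with Bnip3 and 0.42 to 0.50 with Slc2a1, which was the loosest pair. The mean of the 6 pairs was 0.60 in set 1 and 0.55 to 0.62 over the sets, and it was 0.59 in the set 1 cells with neither G2/M nor S genes. The values of a cell share a scaling to that cell's total in set 1, whether the cells of a set share a library is not recorded, and these correlations are descriptions.

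The other classes had lower means of the 6 pairs, at shallower depth and with fewer cells. They were 0.09 to 0.18 over the sets in macrophages, 0.14 to 0.29 in monocytes, 0.06 to 0.35 in neutrophils, 0.07 to 0.12 in T cells and 0.04 to 0.20 in fibroblasts. No set of any other class reached the lowest hepatoma value of 0.55. Thinned to 3000 UMIs, hepatoma cells of set 1 had 0.38 (5959 cells), macrophages 0.20 (280 cells) and T cells 0.06 (899 cells). Thinned to 1000 UMIs, the values were 0.21 in hepatoma cells, 0.14 in macrophages, monocytes and fibroblasts, 0.09 in neutrophils and 0.05 in T cells. Most of the distance between the hepatoma cells and the 3 classes at 0.14 was thus lost at 1000 UMIs, and in such sparse counts no order between the classes was read.

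**Figure D4:**
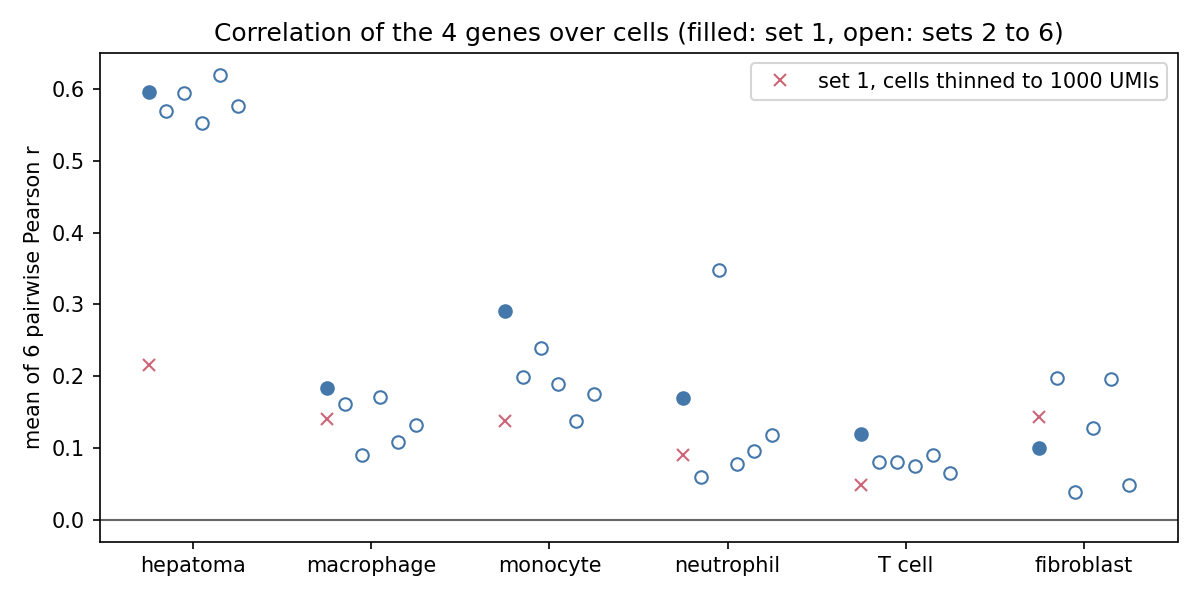
Mean of the 6 pairwise Pearson correlations of the 4 genes over the cells of each class, with 1 circle for each set (filled for set 1) and a cross for set 1 with cells thinned to 1000 UMIs. Hepatoma circles lie between 0.55 and 0.62 and all others at or below 0.35, while the hepatoma cross drops to 0.21.

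Among the genes most like the 4 over hepatoma cells of set 1, by the mean of their 4 Pearson correlations, were Pgk1 (0.56), a glycolytic kinase, Rnf128 (0.55), a ubiquitin ligase, and Vegfa (0.53), the main angiogenic growth factor. Also among them were the cell-cycle inhibitor Cdkn1a (0.51), the lipid droplet protein Hilpda (0.51), the transcriptional coregulator Cited2 (0.49), the ephrin ligand Efna1 (0.47) and the oxygen-sensing prolyl hydroxylase Egln3 (0.47). Igfbp3 (0.46), which binds insulin-like growth factors, Rnf186 (0.46), another ubiquitin ligase, and Ddit4 (0.45), an inhibitor of mTOR signalling, had the lowest values of those named. All of these were among the 50 most like genes in each of the 6 sets, and in cells with neither G2/M nor S genes their values were 0.43 to 0.57. Near-identical pseudogene copies of Pgk1 make its count uncertain.

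At the other end stood Dbi (−0.43), which binds acyl-CoA, the cyclin Ccnd1 (−0.41), the histone variant H2afz (−0.38), the microtubule regulator Stmn1 (−0.37), Pttg1 (−0.36), which encodes securin, and Dtymk (−0.35), a kinase of thymidine nucleotide synthesis. In cells with neither G2/M nor S genes Dbi and Ccnd1 stayed at −0.44 and −0.41, while H2afz, Stmn1 and Dtymk moved to −0.24, −0.26 and −0.25. Over the 1996 other genes of the table, 8.62% had a mean r above 0.1 and 17.5% one below −0.1.

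**Figure D5:**
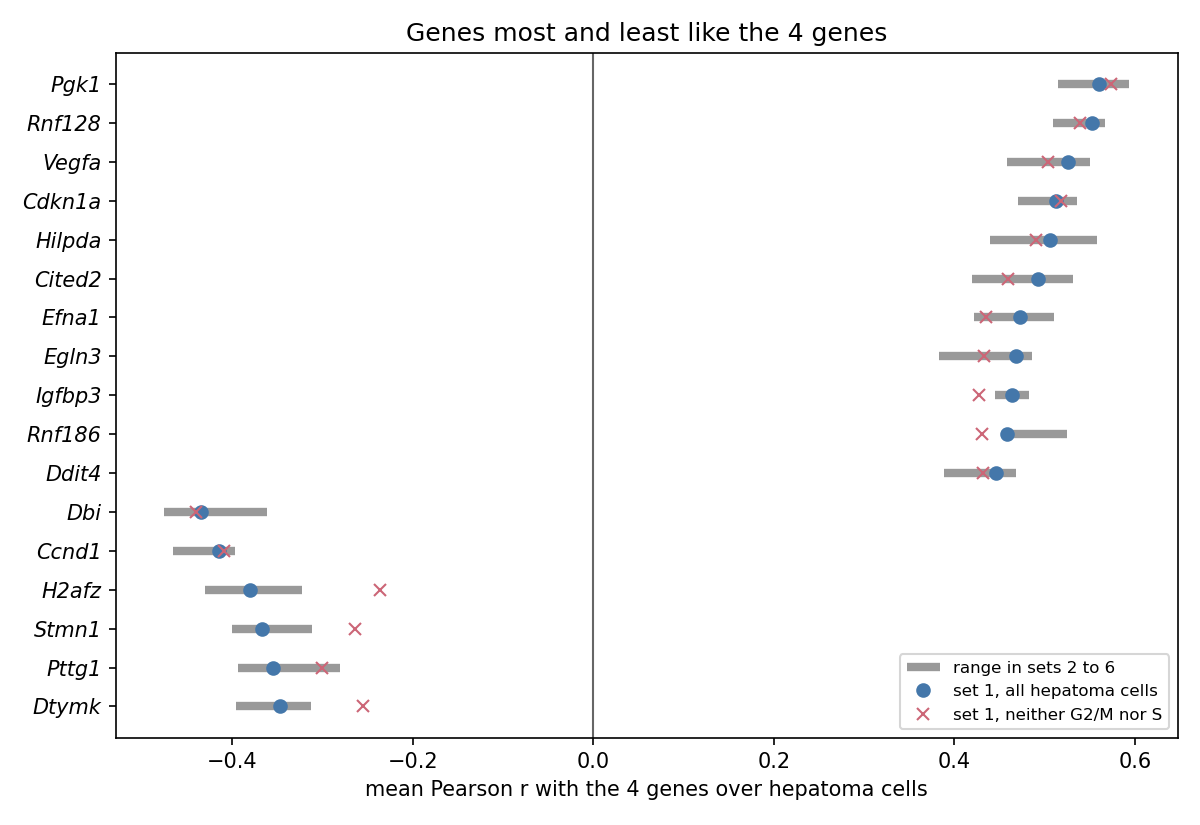
Mean Pearson r with the 4 genes over hepatoma cells for genes most like the 4 and the 6 least like, as a circle for all set 1 cells, a cross for cells with neither G2/M nor S genes and a grey bar for the range in sets 2 to 6. The circles of the most like genes lie between 0.45 and 0.56, and the crosses of H2afz, Stmn1 and Dtymk lie nearer 0 than their bars.

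Of a list of 71 other hypoxia-response genes, 29 were in the table. Of these, 18 had a mean r above 0.1 and did so in all 6 sets, 1 was below −0.1 and 10 lay between, with a median of 0.28 against −0.01 over all other genes. Besides those already named, the highest were P4ha2 (0.38), a collagen prolyl hydroxylase, and Hmox1 (0.37), the inducible haem oxygenase. The lowest were Ppp1r3c (−0.11), a glycogen-targeting phosphatase subunit, the glycolytic enzyme Eno1 (−0.09), whose count is uncertain for its copies, and Angptl4 (−0.02), which had a UMI in 1.62% of the hepatoma cells.

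Lists of other states were less one-sided or ran the other way. Of 14 genes of the endoplasmic reticulum stress and amino acid shortage list, 5 were above 0.1 and 2 below −0.1. In all 6 sets 2 were above and 2 below. In cells with neither G2/M nor S genes 4 were above and 4 below, beside 156 and 266 of the 1996 other genes. Ddit3, a transcription factor of that response, was highest at 0.35, and Phgdh, of serine synthesis, lowest at −0.24. Of 7 heat shock and dissociation genes none was above and 1 was below, with Egr1 highest at 0.08 and Hsph1 lowest at −0.16. Of the 1996 other genes 8.62% were above and 17.5% below. In cells with neither G2/M nor S genes 3 of the 7 were below −0.1 and none was above 0.1. Of 9 mitochondrially encoded genes 8 were below −0.1, from mt-Nd3 at −0.29 to mt-Atp8 at −0.09. The mean of the mitochondrial genes had an r of −0.34 with the mean of the 4 members, and its part in the correlations was not tested. The logarithm of the UMI total had −0.04 and the mean of the hepatoma markers 0.01.

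The cell-cycle lists lay below 0 as a whole. All 44 G2/M genes of the table had a mean r below −0.1, from Hmgb2, a chromatin protein, at −0.30 to the tubulin gene Tubb4b at −0.10. Of 21 S-phase genes 20 did, from the helicase subunit Mcm7 at −0.29 to the cyclin Ccne2 at −0.06. In cells with neither G2/M nor S genes, which those lists themselves define, 4 of the G2/M genes and 1 of the S-phase genes were below −0.1. There 1 G2/M gene was above 0.1, and the medians of the 2 lists were −0.01 and −0.03. Of the genes named, Tubb4b had 0.15, Hmgb2 0.04, Ccne2 0.07 and Mcm7 −0.09 in these cells. In the same cells 18 hypoxia-list genes were above 0.1, and the median of that list was 0.20 against 0.28 over all hepatoma cells. Of the 1996 other genes of the table, 156 were above 0.1 and 266 below −0.1 in these cells.

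Within macrophages the 4 genes were higher in cells with Arg1, an enzyme that breaks down arginine. The 5 genes with the highest mean r with the 4 over the 577 macrophages of set 1 were Hilpda (0.22), Arg1 (0.20), Atp6v0d2 (0.20), Hmox1 (0.20) and Basp1 (0.19). These values are weak and over sparse counts, and the choice of 5 genes was made after values were seen. Arg1 had 0.12 to 0.18 in sets 2 to 6, and the interferon-induced chemokine Cxcl9 had −0.07 in set 1 and −0.06 to 0.00 elsewhere. The 136 macrophages with Arg1 above a deposited value of 1 had 325 CPM of Ero1l (275 to 382) against 105 CPM (89.9 to 122) in the 427 with none. Ndrg1 was 385 against 174 CPM, Bnip3 416 against 221 CPM and Slc2a1 195 against 105 CPM, so Ndrg1 and Ero1l passed 2-fold, as did 8.03% of all genes tested. Arg1 was chosen because of its correlation, so these ratios describe the same values again. Median depth was 2693.5 and 2852 UMIs, and the 5 secreted liver genes summed to 3615 and 3337 CPM.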

How the data were processed

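Droplet-based 3′ single-cell libraries were made on the DNBelab C4 platform and aligned with STAR 2.7.2b, and UMIs were counted with PISA, per the labels' protocols. The submitters' processing notes name GRCh38 and mm10. The deposited values are natural log values, and the steps from counts to the table are not given in the sources used here. In set 1 (9370 cells) each value was the natural log of 1 plus UMIs per 10000, so counts were recovered by taking the smallest value above 0 of a cell as 1 UMI (tolerance 0.01). Every cell of sets 2 to 6 had values below 0, so only differences and correlations are given there. The part of the unknown steps in the likeness between sets was not tested. All 53528 columns belong to no known sample. Cell names hold a running number and no barcode, so shared barcodes could not be counted.

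A marker was on above a deposited value of 1. A class needed 3 markers on (4 for T cells), more than any other class, and a hepatoma marker mean under 1.5. Hepatoma cells needed a mean of at least 1.2 and at most 1 marker on of any other class. Markers also expressed by hepatoma cells, among them Apoe and Gpnmb, and rare hepatoma markers were left out. Gates were settled after values were seen. Natural killer, dendritic, B, endothelial and mast cells were gated to be left out. Scrublet (scanpy 1.11.5, expected rate 6%) called 87 doublets (0.928%) in set 1. Ratios add 1 CPM on the log2 scale and have exact conditional Poisson intervals. The table is 1 sample, so no test was run and no p-value is given. Scripts (Python 3.11.15, numpy 2.4.6, scipy 1.17.1) were tested on simulated data. Named genes are the 4 members, the 12 most and 6 least correlated genes, the 10 highest and 3 lowest of the hypoxia list and the extremes of each other list, of which 1 gene is not reported here. The members and lists were chosen with earlier results of these data known.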

Additional observations from a re-analysis of the deposited data

How the results depend on the processing

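The log2 ratios and correlations of set 1 were recomputed with 1 choice changed at a time. Pseudocounts of 0.1 or 10 CPM moved none of the 4 hepatoma to macrophage ratios beyond its counting interval, and kept doublets moved none of the ratios for macrophages or G2/M. With cells thinned to 1000 UMIs before gating by cycle genes, the ratio to macrophages was 1.63 for Ndrg1. The G2/M ratios of Ndrg1, Bnip3, Slc2a1 and Ero1l were then −1.15, −1.08, −0.76 and −0.70, and the S ratios −0.14, −0.23, −0.35 and 0.051. A mean over cells gave 1.61 for Ndrg1 against macrophages. The stricter gate gave 0.50 for Bnip3 and 0.38 for Ero1l there, from 0.89 and −0.17. A G2/M cut of 40 gave −2.75, −2.25, −1.61 and −1.68, and an S cut of 12 gave −2.52, −2.19, −1.89 and −1.36. The cells with neither stayed those below 20 and 8 UMIs per 10000, and the S group kept the G2/M cut of 20. Cells between the old and new cut were thus left out, which by itself can widen the ratios. The G2/M ratios were −1.59, −1.22, −1.05 and −1.08 in the shallowest of the 4 depth groups and −1.77, −1.64, −1.37 and −1.33 in the next. In the deeper 2 groups Ndrg1 gave −2.58 and −2.60 and Bnip3 −2.01 and −2.22. Without hepatoma markers in the gate, the S ratios were −1.41 for Ndrg1, −1.14 for Bnip3 and −0.84 for Ero1l. The causes were not tested.

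The mean pairwise correlation in hepatoma cells of set 1, 0.60, was 0.55 by Spearman, 0.63 with the stricter gate, and 0.46, 0.69 and 0.75 in depth groups 1, 3 and 4, counted from the shallowest. It was 0.21 thinned to 1000 UMIs and 0.38 thinned to 3000, the latter chosen after seeing the data, as was the restriction to cells with neither G2/M nor S genes. By Spearman the neutrophil mean turned to −0.023 in set 5. The stricter gate left under 20 cells, and so no value, in every set of monocytes, 3 sets of neutrophils and all sets of fibroblasts but set 3. No paired analysis was possible because no set is mapped to a group. Depth is known for set 1 alone, and the 70 to 104 cells of the smallest classes limit their levels.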

Other observations

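The genes nearest to the 4 members were also listed in the remaining classes of set 1, as the 5 with the highest mean correlation among genes detected often enough to be ranked. The choice of 5 was made after values were seen, and the correlations are weak and over sparse counts. In T cells they were Pgk1 (0.16), Cdkn1a (0.14), Eno1 (0.13), Aldoa (0.12) and the costimulatory receptor Tnfrsf4 (0.12), and all 5 stayed above 0 in sets 2 to 6. In neutrophils Hilpda (0.21) stayed at 0.14 to 0.19 in sets 2 to 6, whereas Pcolce (0.24), Gapdh (0.22) and Ccl4 (0.22) had values below 0 in at least 1 of them. In monocytes Basp1 (0.41) had 0.29 to 0.34 and Hmox1 (0.31) 0.16 to 0.29 in the other sets. In the 74 fibroblasts Vegfa (0.22) had 0.08 to 0.14 in the other sets. Prelid2 (0.27) had 0.002 to 0.23 there, Errfi1 (0.23) −0.01 to 0.10 and Cxcl10 (0.26) −0.09 to 0.06.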
